A study of Mus musculus with 38 samples.

Results

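The clustered distal SOX2 sites were the SOX2 binding intervals that lay in local groups, away from promoters and from sites of the heat shock factors. In all, 15081 SOX2 intervals were sorted along the genome, and intervals were joined into a chain wherever the gap to the next was at most 12500 bp. Chains of 3 or more intervals were kept, and their intervals were members if they overlapped no HSF1 or HSF2 interval and lay over 1 kb from every protein-coding transcript start (mm10, GENCODE M21 basic annotation). This gave 1392 members, 9.23% of all SOX2 intervals, in 470 chains. The rule used positions only, so the SOX2 signal in either cell cycle phase had no direct part in it. The HSF intervals, however, were called from HSF signal of the same study in both phases. The intervals dropped for overlapping them had more SOX2 signal (median 41.6 in A and 37.7 in M) than the members (10.9 and 11.7). SOX2 was mapped by CUT&Tag, in which the Tn5 transposase, tethered to the antibody through protein A, cuts and tags the DNA around the bound protein. The cells were wild type JM8 mouse embryonic stem cells, either asynchronous (A, with no nocodazole) or mitotic (M, nocodazole at 50 ng/ml for 6 h, which arrests cells by blocking the assembly of microtubules, and then shake-off). There were 2 libraries per phase, and the deposited signal of each phase is their average. No spread between libraries could therefore be computed, every comparison of M with A is a description without a test, and sites are not replicates. RNA was not analysed here, so the identity of the cells could not be checked against marker genes.

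SOX2 is an HMG box transcription factor that binds the minor groove of DNA and bends it. In embryonic stem cells it occupies many enhancers together with OCT4, often at a composite element in which a SOX core lies beside an octamer, and groups of such enhancers surround genes that keep the cells pluripotent. During mitosis transcription is low and most chromosomal proteins are redistributed, and SOX2 is among the factors known to stay on mitotic chromosomes.

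The sequences below show what SOX2 sites of this kind look like in the reference genome (RefSeq GRCm38.p6, whose chromosomes are those of mm10). The first 4 are members of chains near pluripotency genes that hold a match to the start of the composite element, searched as CATTGT or CTTTGT, any base, and ATG on either strand. Each is the strongest such member of its chain. The capitals mark the match, and each window of 100 bp is printed on the strand on which the match reads in this direction. They lie at chr1:180924892-180924991 near Lefty1 (plus strand), chr16:22398564-22398663 in an intron of Etv5 (minus strand), chr3:34654004-34654103 near Sox2 (plus strand) and chr3:34764745-34764844 far downstream of Sox2 (plus strand). None of the 4 continues into a complete octamer.
Lefty1: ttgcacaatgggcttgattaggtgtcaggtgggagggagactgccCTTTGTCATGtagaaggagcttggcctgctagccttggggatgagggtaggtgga
Etv5: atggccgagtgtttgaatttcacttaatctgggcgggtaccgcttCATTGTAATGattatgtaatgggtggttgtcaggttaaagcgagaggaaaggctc
Sox2, near the gene: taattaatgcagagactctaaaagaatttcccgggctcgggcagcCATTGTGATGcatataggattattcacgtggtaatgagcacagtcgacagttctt
Sox2, downstream: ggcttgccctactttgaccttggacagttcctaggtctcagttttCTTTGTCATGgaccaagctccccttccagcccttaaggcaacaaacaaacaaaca
The next 5 windows of 200 bp, all from the plus strand, show SOX cores, the words ACAATG and ACAAAG or their reverse complements CATTGT and CTTTGT, in capitals. The first 4 are strong members with 3 cores in the printed window and the last is the member with the highest M signal. This choice was made after values were seen, and they are shown because the number of cores is set against the signal below. They lie at chr9:31018786-31018985 upstream of Zbtb44, chr6:38357806-38358005 upstream of Zc3hav1, chr17:7529190-7529389 upstream of Unc93a2, chr13:44722229-44722428 upstream of Jarid2 and chr9:107627013-107627212 in an intron of Gnai2.
Zbtb44: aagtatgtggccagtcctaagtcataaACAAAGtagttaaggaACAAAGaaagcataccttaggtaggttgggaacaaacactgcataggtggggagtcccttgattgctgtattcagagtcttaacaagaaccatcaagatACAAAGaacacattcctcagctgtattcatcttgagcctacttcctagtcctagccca
Zc3hav1: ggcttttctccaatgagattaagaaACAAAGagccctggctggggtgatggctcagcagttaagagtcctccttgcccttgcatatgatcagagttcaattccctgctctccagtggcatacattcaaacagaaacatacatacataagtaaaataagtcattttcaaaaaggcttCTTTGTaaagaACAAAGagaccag
Unc93a2: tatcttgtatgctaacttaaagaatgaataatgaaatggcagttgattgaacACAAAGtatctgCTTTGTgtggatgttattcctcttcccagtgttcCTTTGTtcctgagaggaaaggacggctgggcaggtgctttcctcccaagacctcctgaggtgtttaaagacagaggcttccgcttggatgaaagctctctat
Jarid2: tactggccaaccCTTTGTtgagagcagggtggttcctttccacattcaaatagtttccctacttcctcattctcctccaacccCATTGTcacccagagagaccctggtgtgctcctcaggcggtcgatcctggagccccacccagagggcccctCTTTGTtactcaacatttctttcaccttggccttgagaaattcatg
Gnai2: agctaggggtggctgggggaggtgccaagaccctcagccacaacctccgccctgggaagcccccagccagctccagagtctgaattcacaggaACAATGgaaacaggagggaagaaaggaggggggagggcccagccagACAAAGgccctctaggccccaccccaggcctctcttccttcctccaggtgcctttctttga
The first 4 windows hold 3 cores each and the last holds 2. At Zc3hav1 the interval, chr6:38357869-38357942, is shorter than the window, and all 3 cores lie outside it. The signal over the interval was 154.4 in A and 189.3 in M at Zbtb44, 142.2 and 105.1 at Zc3hav1, 85.5 and 142.4 at Unc93a2, 99.1 and 95.7 at Jarid2, and 113.5 and 604.7 at Gnai2. Of the 4 windows with 3 cores, 2 thus had the higher signal in M, 1 had nearly equal signals and 1 had the lower signal in M.

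Of the 477 chains of 3 or more SOX2 intervals, 335 had 3 intervals, 102 had 4 and 40 had 5 or more, with 9 in the largest. A chain spanned a median of 13674 bp (3424 to 53624 bp). These chains held 1640 intervals, of which 153 overlapped an HSF interval (128 an HSF1 and 67 an HSF2 interval) and another 95 lay within 1 kb of a coding start. The largest gap joined was 12476 bp and the smallest gap not joined 12501 bp, and no SOX2 intervals of the list lay closer together than 1001 bp. The nearest member to a coding start was 1034 bp away. Members had a median width of 249 bp and a median distance of 23.1 kb to the nearest coding start. By the centre of the interval, 621 lay in introns of coding transcripts (44.6%), 25 in exons and 746 outside coding transcripts (53.6%). Chains are named by the protein-coding gene with the nearest transcript start, which does not say which gene a site acts on.

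The deposited values kept a trace of the depth behind them. Signal is the mean coverage per base over an interval. Multiplied by the interval's width, the A signal was a multiple of 0.5 (within 0.01 of a whole number after doubling) at 1392 of 1392 members, as an unscaled coverage averaged over 2 libraries would be, against 34 members for the M signal. The median member had an A signal of 10.9, which on these steps is about 21.8 reads or fragments over each base in both A libraries together. All 56 SOX2 intervals whose M signal times width was above 0 and below 10 were sums of steps of 0.124 and 0.137 (within 0.0002, the second step chosen to place the most intervals, and the next best choice placed 45). Read this way, the median member with an M signal of 11.7 had about 85.4 to 94.9 reads or fragments over each base in the M libraries. Weak values in A thus rest on fewer reads than equal values in M. PCR duplicates were kept, so reads are not independent molecules. The level of M relative to A, and with it the sign of a log2 M/A near 0, rests on the spike-in scaling of the M libraries.

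SOX2 signal was above 0 at nearly all clustered distal sites in both phases and stayed within 2-fold between the phases at most of them. The A signal had a median of 10.9 (quartiles 4.29 and 21.2, from 0 to 184.5) and the M signal a median of 11.7 (5.26 and 26.0, from 0 to 604.7). A signal above 0 was found in both phases at 1340 members. Of the other 52, 50 were at 0 in A and 4 in M, with 2 at 0 in both, and their median width was 86.5 bp. Log2 M/A, taken over the 1340 members, had a median of 0.25 (quartiles −0.37 and 0.90, SD over sites 1.10). The M signal was the higher at 812 members (60.6%), against 63.4% of all SOX2 intervals above 0 in both phases. It was at least 2-fold higher at 294 members (21.9%, background 26.8%) and at least 2-fold lower at 127 (9.48%, background 10.0%), which left 919 (68.6%) within 2-fold. Across the 1340 members, log2 A and log2 M had a Pearson correlation of 0.79 and a Spearman correlation of 0.82, with interval width and position shared between the phases. Relative to the median of all SOX2 intervals above 0 in both phases, which was 0.34, the members lay at −0.081. IgG signal over these intervals was not analysed here, so how much of a weak signal is background is unknown.

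**Figure D1:**
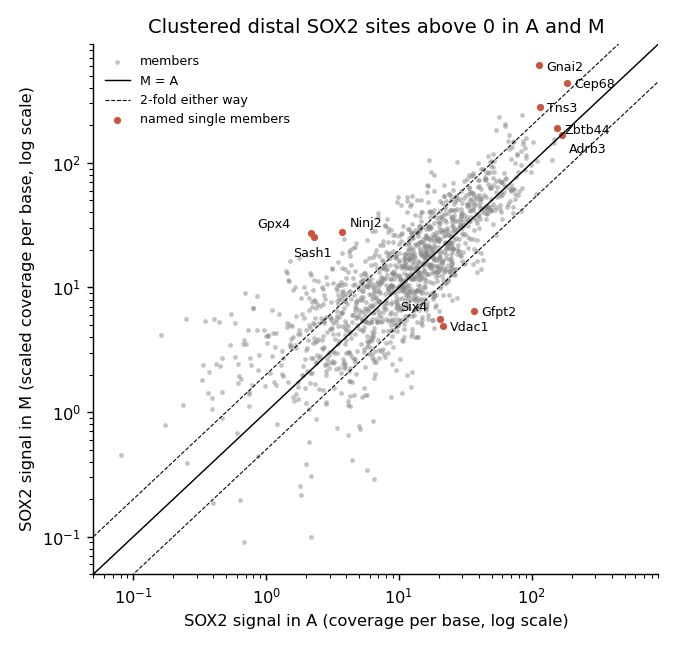
SOX2 signal in A (x axis) and M (y axis), both in coverage per base on log scales, for the 1340 clustered distal sites above 0 in both phases (points), with lines at equal signal and at 2-fold differences. Most points (919) lie between the dashed lines. At the low end of A more points lie far above the upper line than below the lower one, which picking points by a low A favours. The red points are the single members named in the text.

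Weak sites were the more scattered. In the quartile of members that were weakest on average over both phases, the median A signal was 2.19 (about 4.38 reads or fragments per base in both libraries). This quartile held 348 members, of which 296 were above 0 in both phases. Among these 296, the quartiles of log2 M/A were −0.67 and 1.26 and 17.2% were at least 2-fold lower in M. Members at 0 in a phase, mostly in A, were all in this quartile, and the shares leave them out. In the highest quartile, with a median A signal of 34.4, the quartiles were −0.07 and 0.87 and 2.59% were at least 2-fold lower. The share that was at least 2-fold higher in M was 30.7% in the lowest quartile and 20.4% in the highest. The median log2 M/A of the 4 quartiles, from weak to strong, was 0.27, 0.14, 0.18 and 0.39, so it did not run steadily with signal. The part of counting error in the scatter of weak sites was not tested.

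Set beside the 12087 distal intervals that met the same HSF and start rules but lay in chains of 1 or 2, the clustered sites had more signal and a slightly lower log2 M/A. Isolated sites had a median of 7.82 in A and 9.57 in M, so the ratio of the medians, clustered over isolated, was 1.39 in A and 1.23 in M. Their median log2 M/A was 0.35 (quartiles −0.33 and 1.09), 0.10 above that of the clustered sites, and 27.6% of them were at least 2-fold higher in M. The difference is small beside the spread of either set. Isolated sites were narrower (median 224 bp), and within bins of width the difference of the medians, clustered minus isolated, was −0.10 and the ratio of the A medians 1.27. From the narrowest to the widest of 5 bins (up to 100, 200, 300 and 500 bp, and wider), the median log2 M/A was 0.24, 0.27, 0.31, 0.28 and 0.08 for clustered and 0.38, 0.35, 0.33, 0.37 and 0.31 for isolated sites. The difference was smallest from 200 to 300 bp and largest above 500 bp, where 158 clustered and 752 isolated sites were above 0 in both phases. Along the number of intervals in a chain, from 1 to 2, 3, 4 and 5 or more, the median log2 M/A was 0.37, 0.30, 0.28, 0.24 and 0.20. The A median over the same classes was 7.54, 8.96, 10.8, 11.6 and 10.5, so signal did not increase further in the largest chains. The 153 intervals of these chains that overlapped an HSF interval, which are not members, had a median of 41.6 in A and 37.7 in M.

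**Figure D2:**
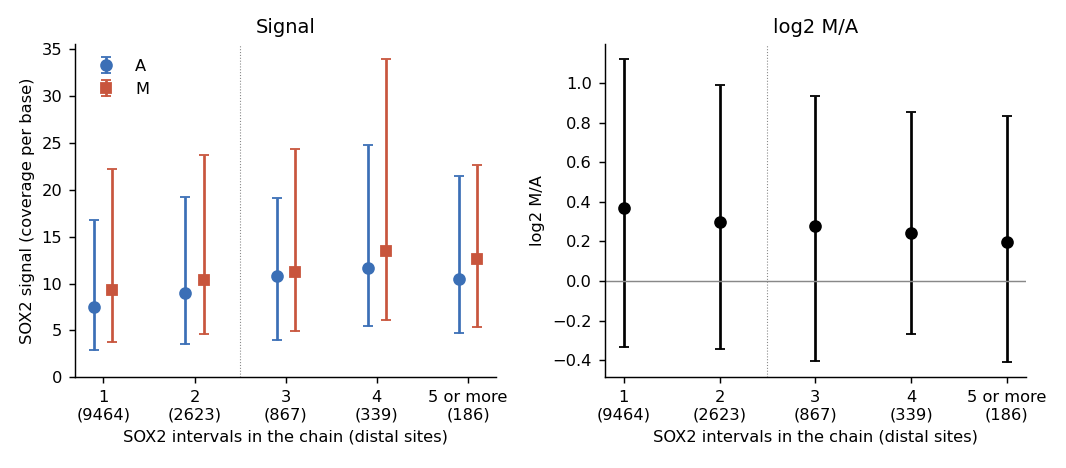
Median and quartiles (points and bars, over sites) of SOX2 signal in coverage per base (left) and log2 M/A (right) for distal sites by the number of SOX2 intervals in their chain, with the number of sites in brackets. Members lie right of the dotted line; the medians of log2 M/A step down from 0.37 to 0.20 while the quartile bars of all classes overlap widely.

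In the deposited signal, sites of the same chain resembled each other little. Of the variance of log2 signal over the 1306 members above 0 that shared a chain with another one, 7.92% lay between the 432 chains in A and 9.48% in M. The intervals of these shares were wide, 2.35% to 13.9% in A and 3.85% to 15.5% in M. For log2 M/A the share was 5.13%, with an SD of 0.25 between chains and 1.07 within them. Its interval of 0 to 11.0% allows no variance between chains. In the 1063 isolated pairs (chains of 2 with both sites above 0) the shares were 11.6% in A, 10.7% in M and 2.73% for log2 M/A. The GC content of the central 200 bp had 17.1% of its variance between chains. GC content is free of counting error and the signal is not, so these shares are unlike measures. How much of the variance within chains was counting or replicate error cannot be told from averaged values. In 874 pairs of neighbouring members of a chain the log2 M/A differed by a median of 0.89, and 56.8% of the pairs lay on the same side of 0. Members that were next to each other along a chromosome but in different chains (446 pairs) differed by a median of 0.99, and 51.3% lay on the same side. Neighbours with a gap of at most 3 kb differed by 0.80, those 3 to 6 kb apart by 1.05 and those farther apart by 0.89, so the difference did not grow steadily with distance.

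Most chains held sites of both directions. With 60.6% of all members higher in M, most groups of 3 or more unrelated sites would do so too. The share expected for such groups was not computed. Of 320 chains with at least 3 members above 0 in both phases, every member was higher in M in 75 (23.4%), every member was lower in 20 (6.25%) and 225 (70.3%) held both. In 35 chains members differed 2-fold in both directions. The range of log2 M/A within a chain had a median of 1.67 (quartiles 1.13 and 2.41, up to 5.98). The chain medians of log2 M/A had quartiles of −0.14 and 0.66, and 213 of the 320 (66.6%) were above 0. Medians of several sites are less spread than single sites by construction. They also tend to enlarge a majority such as the 60.6% of members higher in M, and the share expected of unrelated sites was not computed. The strongest member was in most chains the same in both phases. It was the same interval in A and M in 248 of the 320 chains (77.5%). With signal multiplied by interval width, the member with the largest product held a median of 65.1% of its chain's sum in A and 65.6% in M. This share depends on width as well as signal, and that member need not be the strongest by signal. The strongest member by signal was the widest member of its chain in 149 chains in A and in 143 in M.

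**Figure D3:**
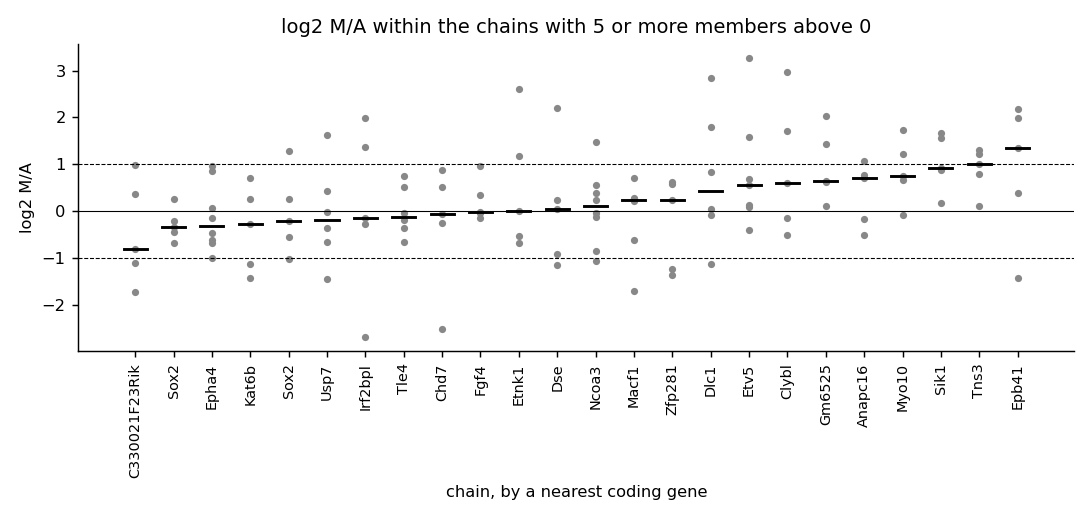
Log2 M/A (y axis) of each member above 0 (points) in the 24 chains with 5 or more such members, ordered by the chain's median (black bar) and named by a nearest coding gene. Dashed lines mark 2-fold differences; the medians run from −0.80 to 1.34, while most single chains have points on both sides of 0.

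The chains with the most members showed the same mixture. The chain at Ncoa3, which encodes a nuclear receptor coactivator, spanned chr2:165969022-166022645 and had 8 members. From the first to the last along the chromosome, their A signal was 26.4, 8.89, 3.73, 13.8, 15.2, 18.4, 3.43 and 2.68, and their M signal 12.52, 13.0, 4.87, 16.3, 14.8, 16.9, 9.46 and 1.49. The M signal was higher at 4 of the 8. At Epha4, which encodes an ephrin receptor, all 8 members lay in introns, the A signal ranged from 4.20 to 31.5 and the M signal from 3.02 to 17.1, with 3 members higher in M. The 6 members at Macf1, a gene for a protein that links microtubules and actin, had A signals from 1.45 to 20.1, and 4 were higher in M. The 6 members at Usp7, which encodes a deubiquitinase, ranged from 2.399 to 89.0 in A and from 7.35 to 87.9 in M, with 2 higher in M and the strongest site almost equal (89.0 and 87.9).

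Near the pluripotency genes fewer of the clustered sites were higher in mitosis than among all members. Of a list of 46 such genes, which also held genes of later states such as Otx2, 19 had a chain with a member nearest to them within 100 kb. These were 24 chains with 78 members, some of which lay farther away or nearest to another gene. Of the 72 members above 0 in both phases, 30 were higher in M (41.7%, against 60.6% of all members and the background of 63.4%), 11 at least 2-fold (15.3%) and 8 at least 2-fold lower (11.1%). Their median log2 M/A was −0.10 (quartiles −0.46 and 0.39), against 0.25 over all members. Among members within 100 kb of a listed start, 29 of the 66 above 0 in both phases were higher in M (43.9%), with the same median. The 6 of the 78 members left out of the ratio were at 0 in A and above 0 in M. Over all 78, the median signal was 9.63 in A and 10.9 in M and the mean 17.3 and 18.2, so by these measures M was not the lower phase. A median ratio this near 0 has no firm sign, since it rests on the scaling of the M libraries.

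Sox2 itself, whose product activates its own gene, had 2 chains. The chain at the gene, chr3:34646203-34668826, had 5 members. Their A signal was 5.93, 6.71, 19.8, 5.17 and 20.1, and their M signal 2.93, 8.02, 13.5, 12.502 and 17.2. The strongest sites, centred 3.65 kb and 18.0 kb downstream of the start, were both lower in M, with a log2 M/A of −0.56 and −0.22. The other chain, chr3:34735178-34764851, was centred 84.8 to 114.4 kb downstream of the start, where a distal control region needed for Sox2 expression in embryonic stem cells is known. Its A signal was 33.3, 58.1, 36.7, 45.0 and 8.64, and its M signal 20.7, 42.3, 29.0, 53.7 and 7.43. All 5 stayed within 2-fold (log2 M/A −0.69 to 0.25), 4 were lower in M, and 4 had more signal in both phases than any member of the chain at the gene.

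Among the other transcription factor genes, the directions varied. At Etv5, which encodes an ETS factor downstream of FGF signalling, all 8 members lay in introns (chr16:22398596-22429144), with A signals of 1.40, 0, 35.0, 20.5, 3.35, 16.6, 8.89 and 22.7 and M signals of 13.5, 2.67, 37.1, 32.7, 9.98, 18.1, 13.0 and 17.1. Here 6 of the 7 members above 0 were higher in M, and the strongest site was almost equal (log2 M/A 0.08). The site with the composite match printed above was the one with the largest ratio (1.40 and 13.5, log2 M/A 3.27), from an interval of 49 bp. At Nr5a2, an orphan nuclear receptor gene, the 3 members were weak and all at least 2-fold lower in M, with 3.25, 4.15 and 9.64 in A and 1.57, 1.13 and 4.49 in M. At Prdm14, which encodes a repressor of differentiation genes, the 4 members had 57.4, 20.6, 9.23 and 6.77 in A and 46.0, 10.3, 13.4 and 14.4 in M, so that the stronger pair was lower and the weaker pair higher in M. At Otx2, a homeobox gene of the primed state, the strongest of the 4 members of the nearer chain was higher in M (49.1 and 103.9, log2 M/A 1.08) and another was lower (8.80 and 2.44). At Sall4, a zinc finger gene, the member 2.31 kb upstream had an A signal of 16.3 and an M signal of 58.9 (log2 M/A 1.85), while a member 2.33 kb downstream had 22.1 and 10.9 (−1.02). The 4 members of the chain between Sox1 and Spaca7 had 7.03, 1.55, 6.45 and 22.8 in A and 6.32, 3.35, 6.36 and 22.3 in M. At Esrrb, another orphan nuclear receptor gene, the strongest member had 26.9 and 24.8. Klf4 and Nanog each had a single member, with 74.6 in A and 56.5 in M at Klf4 and 6.19 and 5.24 at Nanog. At Tbx3 the 2 chains held 6 members, of which 2 were at 0 in A. The 3 members at Mycn were weak, from 0.617 to 9.62 in A and from 1.31 to 7.31 in M.

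Among genes of signalling and chromatin, Fgf4, the FGF ligand secreted by embryonic stem cells, had 6 members (chr7:144851437-144872910) with 9.34, 4.37, 23.6, 29.3, 5.67 and 0 in A and 18.3, 3.96, 23.4, 37.1, 5.47 and 0.62 in M. The strongest, centred 3.06 kb downstream of the start, overlapped an exon of the gene, where an enhancer bound by SOX2 and OCT4 is known. Its log2 M/A was 0.34, and 3 of the other members differed by less than 0.15 on that scale between the phases. Lefty1, a Nodal inhibitor, had a strong member 10.1 kb upstream with 59.0 in A and 70.6 in M, the site printed above, and a weak member with 4.11 and 1.24. Spry4, a feedback inhibitor of receptor tyrosine kinases, had 3 members, the strongest with 26.3 and 49.3. The 4 members of the chain at Dppa5a, which encodes an RNA-binding protein of early embryos, and its neighbour Ooep were all lower in M, with 9.53, 18.2, 13.1 and 59.9 in A and 7.68, 9.16, 6.57 and 54.8 in M. Tet2 and Tet1, which encode enzymes that oxidise 5-methylcytosine, differed: the stronger Tet2 member had 62.2 and 57.9, and the stronger Tet1 member 13.3 and 8.06. At Jarid2, a subunit of Polycomb repressive complex, the strongest member had 99.1 and 95.7.

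**Figure D4:**
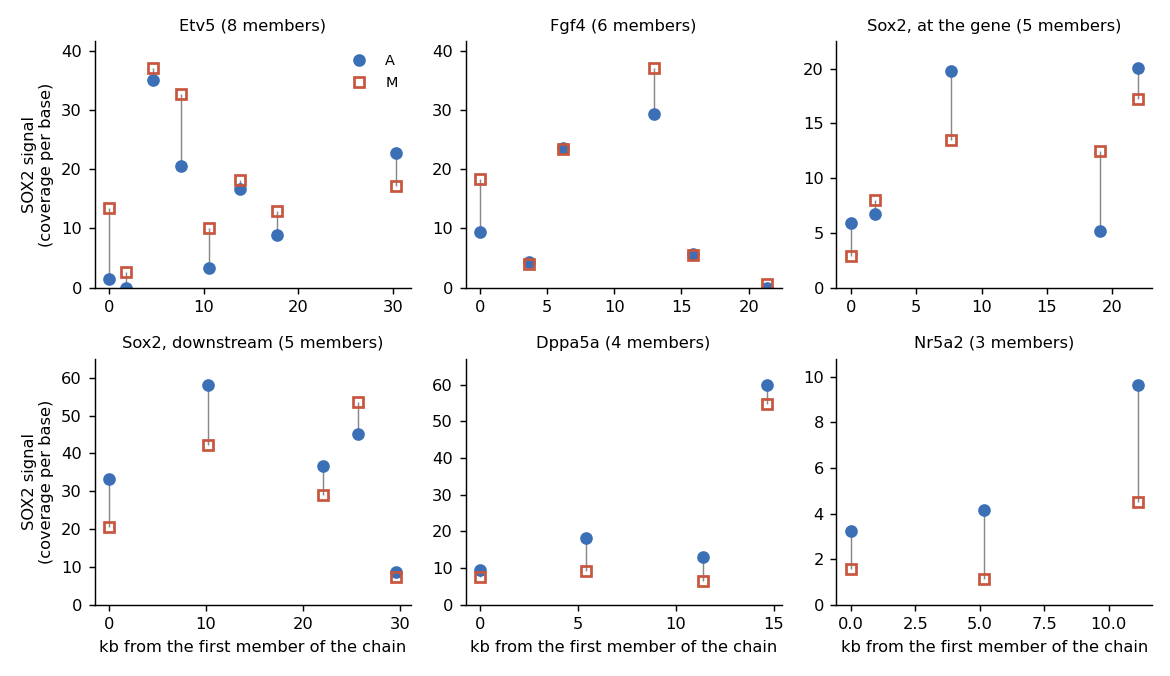
SOX2 signal (y axis, coverage per base) in A (filled circles) and M (open squares) at each member of 6 chains near pluripotency genes, against the distance in kb from the chain's first member along the chromosome. At Etv5 the squares lie above the circles at all but the last member, at Dppa5a and Nr5a2 they lie below at every member, and in the downstream Sox2 chain at 4 of 5.

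Away from the list, the chains at the ends of the range had 3 or 4 members, as did most chains. Of the 320 chains with at least 3 members above 0, 234 had 3 such members and 62 had 4. Among chains with at least 3 members above 0 and a mean signal at or above the median of such chains, the highest median log2 M/A were 2.403 at Gnai2, 2.32 at Dst and 2.11 at Rassf10. At Gnai2, a gene for a G protein subunit, all 3 intronic members (chr9:107624651-107630949) were at least 2-fold higher in M, with 6.98, 113.5 and 14.7 in A and 36.9, 604.7 and 33.9 in M. The middle one had the highest M signal of all members. At Dst, which encodes a cytoskeletal linker, the values were 2.19, 2.30 and 48.8 in A and 12.6, 11.5 and 64.5 in M, so the strong site differed least. The lowest chain medians were −1.04 at Zfp428 and AC161166.1, −0.89 at Ahi1 and −0.85 at Msi2. At Msi2, which encodes an RNA-binding protein, the 3 intronic members had 38.5, 24.2 and 8.96 in A and 13.4, 13.4 and 5.61 in M. At Ahi1, a cilium gene, 3 of 4 members were lower in M.

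Among single members whose mean signal over both phases was no lower than the members' median, the highest log2 M/A were 3.64 near Gpx4 (2.18 in A and 27.1 in M), 3.45 at Sash1 (2.31 and 25.2) and 2.89 at Ninj2 (3.75 and 27.7). These intervals were 199, 49 and 24 bp wide. The lowest were −2.51 at Gfpt2 (36.9 and 6.48), −2.12 at Vdac1 (21.5 and 4.94) and −1.85 near Six4 (20.3 and 5.63), in intervals of 124, 49 and 149 bp. All 6 were narrower than the median member (249 bp). The 3 highest had A signals below the members' A median (10.9), and the 3 lowest had M signals below the M median (11.7). Each thus passed the signal limit through the phase in which it was high, so the limit does not guard against a weak value in the other phase. The highest A signals, 184.5 at Cep68, 168.9 upstream of Adrb3 and 154.4 upstream of Zbtb44, went with M signals of 437.1, 166.9 and 189.3. The highest M signals were at Gnai2, at Cep68 and, with 282.9 in M and 114.9 in A, at Tns3.

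In sequence, the clustered sites carried SOX cores about as often as the isolated ones. Within the central 200 bp, 54.5% held a core (Wilson 95% interval over sites, 51.9% to 57.1%), against 26.3% and 27.4% of windows of the same length 2 kb to the left and right. Among isolated sites the share was 57.5% (56.6% to 58.4%) and among all SOX2 intervals 56.3%. The octamer ATGCAAAT, the binding motif of OCT4 and its relatives, stood in 5.75% of members (4.64% to 7.10%), against 1.51% and 1.08% of the flanks and 8.25% of isolated sites (7.77% to 8.75%). The start of the composite element, which contains the reverse complement of a SOX core, stood in 5.10% of members (71 sites), 0.647% and 0.216% of the flanks and 7.07% of isolated sites. No member held the element with a complete octamer, which with 3 sites as the limit allows a share of up to 0.216%, and 24 isolated sites did (0.199%). The 71 composite matches were spread over 64 chains, 7 of which had 2 or more, and 408 of the 470 chains had at least 1 member with a SOX core.

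Members with a SOX core had a higher median log2 M/A than members without, and those with 2 a higher one than those with 1. Members without a core had a median log2 M/A of 0.07 (607 members above 0), members with 1 core 0.27 (507), with 2 cores 0.62 (172) and with 3 or more 0.58 (54). The share at least 2-fold higher in M was 16.3%, 22.3%, 36.6% and 35.2%, and the share at least 2-fold lower 12.0%, 8.68%, 5.81% and 0%. Among isolated sites the medians over the same classes were 0.12, 0.42, 0.70 and 0.91. With 0, 1 and 2 cores the median A signal of the members was 11.5, 9.54 and 10.9, and the M median 10.8, 10.7 and 16.4. From 0 to 1 core the A median was thus lower and the M median nearly the same, and only with 2 was the M median higher. With 3 or more cores both were higher (16.4 and 24.8). Isolated sites differed: with 0 and 1 core their A median was 7.30 and 7.78, and their M median 7.65 and 9.77. A core in the flanking window did not go with a higher ratio. The median of members with a core minus that of members without was 0.32 for the central window, and −0.08 and −0.06 for the left and right flank. Either word showed the same direction, with 0.27 for ACAATG alone, 0.38 for ACAAAG alone and 0.59 for both. This comparison was chosen after results had been seen, and sites of the same tracks are not replicates.

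Log2 M/A was also higher at members of higher GC content. Over the quartiles of GC in the central 200 bp (25 to 43.5%, 44 to 47%, 47.5 to 50.5% and 51 to 65%) the median was 0.08, 0.17, 0.37 and 0.41. Members with a core were slightly lower in GC (median 46.5%) than members without (47.5%). Within the 4 quartiles the median with and without a core was 0.18 and −0.03, 0.39 and 0.03, 0.56 and 0.18, and 0.62 and 0.22, so the sites with a core had the higher median in each. Among isolated sites, over the quartiles of their own GC content, the median was 0.16, 0.42, 0.37 and 0.48, so it did not rise steadily there. The part of base composition in the amplification or sequencing of either phase was not tested.

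**Figure D5:**
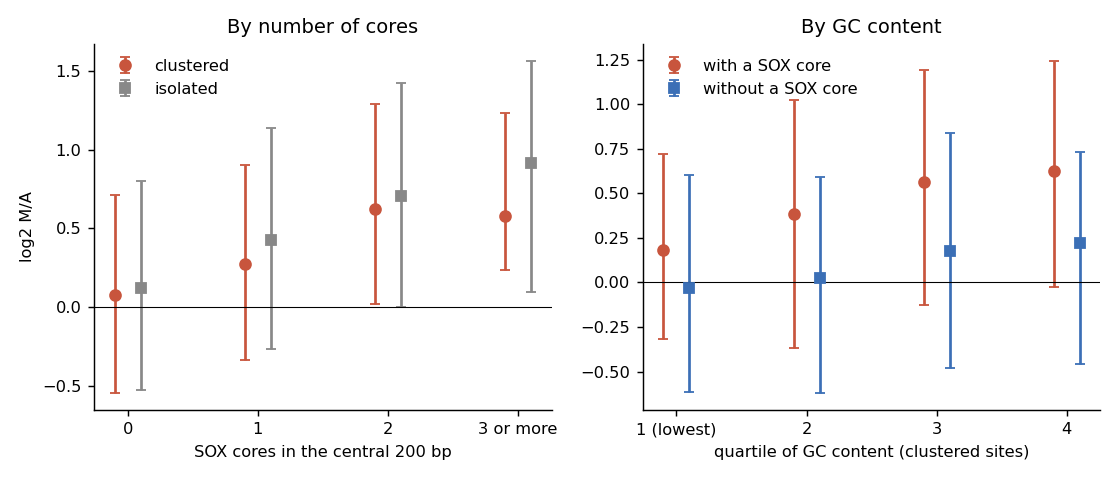
Median log2 M/A (points) with quartiles over sites (bars) by the number of SOX cores in the central 200 bp for clustered and isolated distal sites (left), and by quartile of GC content for clustered sites with and without a core (right). The clustered medians run from 0.07 without a core to 0.62 with 2, and in each GC quartile the sites with a core lie above those without, while the bars overlap.

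By position, the ratio varied little. The median log2 M/A was 0.18 for the members within 10 kb of a coding start, 0.28 from 10 to 50 kb and 0.25 farther away. Members in introns had 0.31 and members outside coding transcripts 0.23, with A medians of 9.03 and 12.4. Members with an octamer had a median log2 M/A of 0.16 (77 above 0) and members with a composite match 0.52 (70 above 0), both with quartiles that widely overlapped those of all members.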

How the data were processed

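SOX2 signal was taken from the table of SOX2 intervals, and the HSF1 and HSF2 tables gave positions only. The deposited signal is coverage: the authors aligned reads to mm10 with Bowtie2 2.4.2, kept PCR duplicates, scaled tracks by reads of a Drosophila spike-in (asynchronous samples set to 1) and averaged the 2 replicates of a condition over each interval. SOX2 intervals were taken from the literature by the authors, and HSF intervals were called with SEACR against IgG. From these values, chains were built as described, and log2 M/A was computed without a pseudocount where both signals were above 0. Medians and quartiles over sites, one-way variance components and motif searches on both strands of GRCm38.p6 were computed in Python 3.11.15 with numpy 2.4.6, pandas 2.3.3 and scipy 1.17.1, and tested on simulated data. Figures were drawn with matplotlib 3.10.9. A 2-fold call is a log2 M/A of at least 1 or at most −1. With averaged columns no test was made. Intervals of shares of sites are Wilson intervals over sites, and those of variance shares are not. The Wilson intervals do not cover counting error, and neither kind covers variation between cultures.

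Named were chains near 46 pluripotency genes (within 100 kb, those with most members in full), the 5 chains with the most members, the 3 chains at each end of median log2 M/A, the 3 single members at each end, and the 3 members with the highest signal in each phase. Unc93a2 and Zc3hav1 were added after their values were seen. The members and gene lists were chosen with earlier results of these data known. The source of the SOX2 antibody differs between the labels and the methods. The alternatives tried were other pseudocounts, minimum signals, gaps, chain sizes, distances, widths, windows and centring.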

Additional observations from a re-analysis of the deposited data

How the results depend on the processing

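The median log2 M/A of clustered distal sites stayed between 0.20 and 0.29 under all alternatives but centring, and centring on the median of all SOX2 intervals gave −0.081, with 45.9% of members above 0, 13.6% at least 2-fold higher and 16.2% at least 2-fold lower in M. The share higher in M was 64.4% for the stronger members (mean signal no lower than the members' median), 55.0% in chains of 5 or more and 65.2% with 1 value per chain. The share at least 2-fold higher was 19.8% with a pseudocount of 1, 19.0% at or above the median signal, 19.4% with gaps of at most 5 kb and 19.4% in chains of 5 or more. The share at least 2-fold lower was 6.54% with a pseudocount of 1 and 4.89% at or above the median signal. The median A signal was 9.56 with gaps of at most 25 kb and 11.9 with HSF-overlapping intervals kept. The M median was 13.1 with gaps of at most 5 kb, 10.4 with 25 kb and 13.0 with HSF-overlapping intervals kept. The A ratio of clustered over isolated sites was 1.27 within bins of width. The SOX core was found in 58.1% of whole intervals and 67.8% of 400 bp windows, at 1.69 and 1.47 times the flanks, and the octamer in 7.76% of each, at 2.88 times the flanks in 400 bp windows. The composite stood at 9.16 and 6.15 times the flanks. The cause of these changes was not tested. By construction, however, wider windows hold more chance matches, and 1 value for several sites of a chain tends to enlarge a majority. The variance shares kept within the wide intervals of the reported values (0 to 11.0% for log2 M/A). For log2 M/A with against without a SOX core, the difference of 0.32 was 0.28 with a pseudocount of 1, 0.39 at or above the median signal and 0.28 with 400 bp windows, alternatives added after seeing the data.

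No paired analysis was possible because the deposited columns are averages over the replicates and carry no replicate number. For the same reason leaving out a replicate was not run. Depth limits the weak sites most, since the A signal rests on fewer reads than the M signal. Intervals 24 bp wide sample few bases. An error in the spike-in factors would shift every log2 M/A of these sites together where both libraries of a phase share it.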
